A study of Mus musculus with 6 samples.

Results

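The Ikaros family comprised 5 genes, Ikzf1 (Ikaros), Ikzf2 (Helios), Ikzf3 (Aiolos), Ikzf4 (Eos) and Ikzf5 (Pegasus), picked by symbol from the 24411 genes listed for every library. Poly(A)-selected RNA was sequenced in 6 libraries of C57BL/6 mouse bone marrow cells. The 3 Brd9 KO libraries came from CD45.2(+) Mx1-Cre Brd9fl/fl mice and the 3 Control libraries from CD45.2(+) Brd9fl/fl mice, which carried the same floxed allele and no Cre. Both groups had received 20 mg/kg pIpC, a double-stranded RNA that induces interferon, in 3 injections, and the cells were taken 8 weeks later. The Mx1 promoter that drives Cre answers to interferon and is not specific to blood cells, and the presence of Cre and the loss of Brd9 cannot be told apart. The labels name lineage-negative cells of femora and tibiae and speak of transplant recipients, the series design speaks of primary mice injected from 4 weeks after birth, and the methods of the study speak of sorted Lin-c-Kit+ cells. Kit, the receptor used in that sort, had 269, 266 and 178 CPM (counts scaled to library size, with TMM factors) in Brd9 KO libraries, against 205, 228 and 229 CPM in Control libraries, and is thus transcribed in both groups. The labels give no separate animals for the replicates, so p-values measure the spread between these libraries.

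Ikaros proteins are zinc finger transcription factors. Fingers near the amino end bind DNA, and a pair of fingers at the carboxyl end joins members into dimers, so that one member can partner another. Ikaros recruits the NuRD remodelling complex and other corepressors, is needed for lymphoid priming of multipotent progenitors, and restrains stem cell and myeloid genes in them. Helios is best known from regulatory T cells and stem cells, Aiolos from maturing B cells and NK cells, and Eos from regulatory T cells, and Pegasus is the most divergent member. BRD9, the bromodomain protein deleted here, belongs to the non-canonical BAF remodelling complex.

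The members are first told apart by their sequence. Ikzf1, Ikzf2, Ikzf3 and Ikzf4 each encoded 6 C2H2 fingers in their longest coding sequence and Ikzf5 encoded 5, by a pattern search of the translated GENCODE M21 transcripts (mm10). The finger shown for Ikzf1 to Ikzf4 is the 2nd, a core DNA-binding finger, and for Ikzf5 its 1st, the finger of that length that is closest to the Ikzf1 one. Each sequence is the coding strand of 63 bases, and the capitals mark the codons of the cysteine pair and the histidine pair that hold the zinc ion.
Ikzf1: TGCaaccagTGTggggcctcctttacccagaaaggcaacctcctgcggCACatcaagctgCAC
Ikzf2: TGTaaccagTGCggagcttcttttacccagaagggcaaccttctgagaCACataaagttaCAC
Ikzf3: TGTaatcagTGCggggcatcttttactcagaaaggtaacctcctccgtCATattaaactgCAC
Ikzf4: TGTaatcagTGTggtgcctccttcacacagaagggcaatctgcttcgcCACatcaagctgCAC
Ikzf5: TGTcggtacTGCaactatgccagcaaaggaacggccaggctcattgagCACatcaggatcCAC
The Ikzf1 finger lies at chr11:11754024-11754086 (plus strand, exon 5), the Ikzf2 finger at chr1:69570581-69570643 (minus strand, exon 5) and the Ikzf3 finger at chr11:98488940-98489002 (minus strand, exon 5). The Ikzf4 finger lies at chr10:128640229-128640291 (minus strand, exon 5) and the Ikzf5 finger at chr7:131393759-131393821 (minus strand, exon 3). All 21 codons of this finger encode the same residue in Ikzf1, Ikzf2, Ikzf3 and Ikzf4, although only 51, 51 and 53 of the 63 bases of Ikzf2, Ikzf3 and Ikzf4 match those of Ikzf1. In Ikzf5, 6 of the 21 codons encode the residue found in Ikzf1. The longest stretch of identical coding bases between any pair of members is 26 bases, between Ikzf1 and Ikzf3, so long runs that could swap reads between members were not found in the coding sequences.

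The targeted gene was examined first. Brd9 had 15.6, 13.5 and 21.03 CPM in Brd9 KO libraries, against 45.9, 49.1 and 52.1 CPM in Control libraries. All Brd9 KO libraries thus lay below all Control libraries, at 34.1% of the Control mean (log2 fold change -1.56 ± 0.17 SE, edgeR quasi-likelihood adjusted p = 0.0034). These counts cover the whole gene and not the deleted exons alone. The exact two-sided permutation test gave p = 0.1, the smallest that 3 libraries against 3 allow.

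Libraries held 21151031 to 25526248 expected counts in Brd9 KO and 23915415 to 28500168 in Control. Of 12953 genes tested, 1999 (15.4%) were called at an adjusted p under 0.1, 1190 higher in Brd9 KO (9.19%) and 809 lower (6.25%). With library totals in place of TMM the split was 1402 higher and 489 lower, and on the log2(TPM + 1) scale 1114 higher and 224 lower. The 6 libraries did not overlap between groups for 33.5% of tested genes, and for 17.2% every Brd9 KO library lay above every Control library. Fold changes moved with transcript length: the median log2 fold change was -0.28 among genes under 1000 bases and 0.41 among those over 10000 bases, against 0.02 over all tested genes. Transcripts over 4000 bases took 22.8%, 25.02% and 18.5% of counts in Brd9 KO libraries, against 15.8%, 20.5% and 19.2% in Control libraries. Markers of several cell types moved with genotype. Called higher were 8 of 13 megakaryocyte and platelet, 7 of 8 basophil and mast cell and 5 of 6 eosinophil markers. So were 6 of 9 macrophage and 7 of 9 mesenchymal stroma markers, while 6 of 9 erythroid markers were called lower. Epx of the eosinophil list and Vcam1 and Cd163 of the macrophage list were also called lower (log2 fold changes -1.54, -1.40 and -1.15). Brd9 KO replicate 3 stood apart from the other libraries in neutrophil markers, which summed to 27888 TPM in it, against 5805 and 7414 TPM in the other Brd9 KO libraries and 6832 to 9699 TPM in Control libraries. Camp alone of the neutrophil list was called, lower in Brd9 KO (log2 fold change -3.555, edgeR adjusted p = 0.057). It had 3.97, 2.76 and 38.0 CPM in Brd9 KO libraries, against 244, 107 and 167 CPM in Control libraries. Without Brd9 KO replicate 3, the log2 fold change was 1.52 for Ikzf2 and 1.04 for Ikzf3 (edgeR adjusted p = 8.6e-04 and 0.018), and 0.16 for Ikzf1 and 0.22 for Ikzf5, which were not called. In such bulk samples, fewer cells of a type and less RNA per cell cannot be told apart, and the part of these shifts in the Ikaros family values was not tested beyond the values given beside them.

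Of the 5 members, Ikzf2 and Ikzf3 were higher in Brd9 KO cells, Ikzf1 and Ikzf5 did not pass the test, and Ikzf4 was at the limit of detection. Ikzf2 rose 2.67-fold (95% interval 2.08 to 3.43) and Ikzf3 2.04-fold (1.48 to 2.81), so 2 of the 4 tested members were called, both higher, beside 9.19% of all tested genes. Ikzf1, by far the most abundant member, stayed within 1.28-fold of Control at the upper end of its interval.

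**Figure D1:**
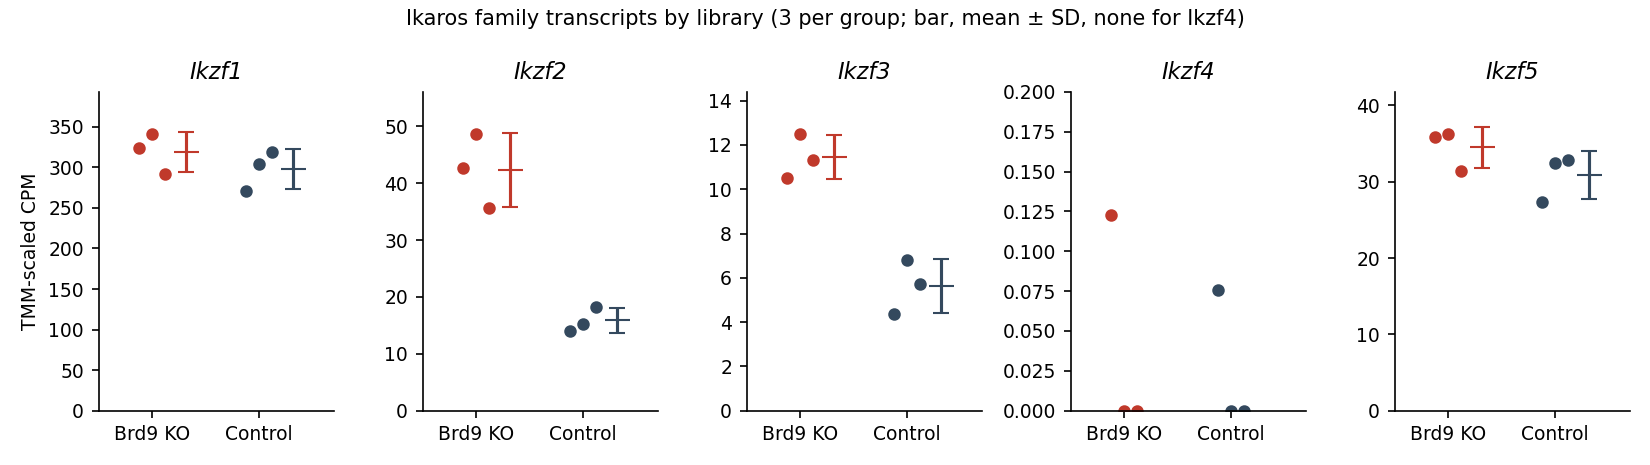
Each point is 1 library, with TMM-scaled CPM on the vertical axis from 0 and a separate scale for each gene, Brd9 KO on the left and Control on the right, and the bar gives the mean ± SD of 3 libraries. Ikzf2 and Ikzf3 do not overlap between groups (35.7 to 48.7 against 14.0 to 18.3 CPM, and 10.5 to 12.5 against 4.35 to 6.79 CPM), while Ikzf1 and Ikzf5 do.

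Ikzf2 spans chr1:69531214-69687245 on the minus strand. Its rounded expected counts were 1041, 1339 and 740 in Brd9 KO libraries, against 370, 363 and 496 in Control libraries. Scaled for depth, these were 42.6, 48.7 and 35.7 CPM in Brd9 KO, against 14.0, 15.3 and 18.3 CPM in Control. The lowest Brd9 KO library thus lay above the highest Control library by more than the whole range within either group. The means were 42.3 ± 6.52 and 15.9 ± 2.18 CPM (SD, n = 3 each), a log2 fold change of 1.42 ± 0.16 SE with an edgeR quasi-likelihood adjusted p of 0.0035, and Ikzf2 ranked 69th of 12953 genes by p. The transcript counted for Ikzf2 is 9421 bases long, a length at which fold changes in general lay above 0. Among 471 genes within 20% of that length the median log2 fold change was 0.32, with quartiles of 0.14 and 0.53, and 21 of them were higher than Ikzf2. With a transcript length offset in the fit, chosen after seeing the data, the log2 fold change of Ikzf2 was 1.09 ± 0.10 SE (edgeR adjusted p = 0.0015). Beyond these values, the part of transcript length in the Ikzf2 value was not tested.

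Ikzf3 spans chr11:98464902-98546031 on the minus strand. It had 257, 344 and 235 counts in Brd9 KO libraries, against 115, 161 and 155 in Control libraries, the lowest counts of the tested members. These were 10.5, 12.5 and 11.3 CPM in Brd9 KO, against 4.35, 6.79 and 5.70 CPM in Control. Again every Brd9 KO library lay above every Control library. The means were 11.5 ± 1.005 and 5.62 ± 1.22 CPM (SD, n = 3 each), a log2 fold change of 1.03 ± 0.20 SE (edgeR adjusted p = 0.024, rank 478). At 4098 bases Ikzf3 has a length class with little shift of its own: 2936 genes within 20% of it had a median log2 fold change of 0.09. With the length offset, the log2 fold change of Ikzf3 was 0.94 ± 0.16 SE (edgeR adjusted p = 0.012). Neither call was lost in any of the 18 alternatives, in which the log2 fold change ran between 1.09 and 1.58 for Ikzf2 and between 0.87 and 1.21 for Ikzf3. The threshold of 0.05 was set on the main fit alone, and the other alternatives were read at 0.1. The adjusted p of Ikzf3 was above 0.05 without Brd9 KO replicate 1 or 2, without Control replicate 1 or 3, and by limma on log2(TPM + 0.1).

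**Figure D2:**
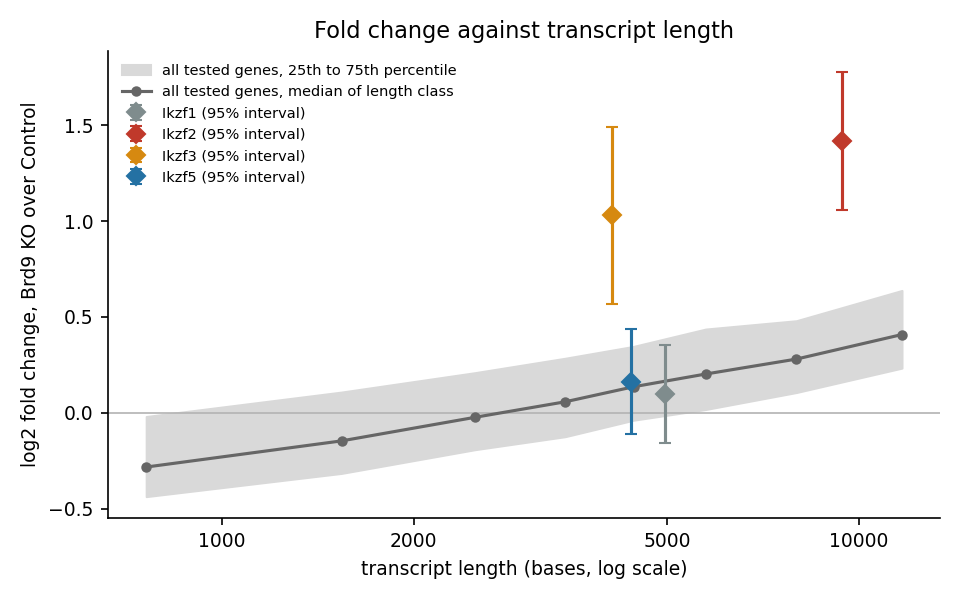
Fold changes (log2, Brd9 KO over Control) are drawn against transcript length in bases on a log axis, with the median and the 25th to 75th percentile of all tested genes in 8 length classes and the 4 tested members with their 95% intervals. Ikzf1 (0.10) and Ikzf5 (0.16) sit on the band of genes of their length, and Ikzf2 (1.42) and Ikzf3 (1.03) sit above it.

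Ikzf1 spans chr11:11685003-11772926 on the plus strand. It had 324, 342 and 292 CPM in Brd9 KO libraries, against 271, 305 and 319 CPM in Control libraries. The groups overlapped, with means of 319 ± 25.1 and 298 ± 24.4 CPM (SD, n = 3 each). The log2 fold change was 0.10 ± 0.11 SE, with a 95% interval of -0.16 to 0.35 (edgeR adjusted p = 0.60). It was not called in any of 18 alternatives and was slightly negative, at -0.06, in the fits with the length offset. Ikzf1 is the one member counted over several transcripts, 6 in all, so its mean transcript length can report a change in isoform use. That length was 5049, 5101 and 4824 bases in Brd9 KO libraries, against 4817, 5037 and 4965 bases in Control libraries, and overlapped (exact two-sided permutation p = 0.5). The isoforms of Ikaros that lack DNA-binding fingers act as dominant negatives, but coverage by exon was not analysed here.

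Ikzf5 spans chr7:131388652-131410521 on the minus strand. It had 35.8, 36.3 and 31.4 CPM in Brd9 KO libraries, against 27.3, 32.4 and 32.9 CPM in Control libraries. The groups overlapped, and the log2 fold change of 0.16 ± 0.12 SE had a 95% interval of -0.11 to 0.43 (edgeR adjusted p = 0.41). Exons of Ikzf5 overlap those of Pstk on the opposite strand. The labels call the libraries unstranded while the methods name a stranded kit, so reads in the overlap cannot be assigned with certainty. Pstk had 15.2, 11.6 and 14.9 CPM in Brd9 KO, against 19.7, 13.4 and 14.1 CPM in Control, and was not called either (log2 fold change -0.18, edgeR adjusted p = 0.57). The antisense gene Gm29114, not analysed here, also overlaps exons of Ikzf2, so its reads, if any, could have been counted as Ikzf2.

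Ikzf4 spans chr10:128630843-128645991 on the minus strand. It had 3, 0 and 0 counts in Brd9 KO libraries, against 2, 0 and 0 in Control libraries. A library with no count allows up to 3 counts, 0.105 to 0.142 CPM at these depths by counting error alone, so no fold can be given, and the gene did not enter the test. Eos transcripts were thus not detectable above this limit in either group.

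Levels of different members can be compared per length, for which the deposited TPM served. In every library the order was Ikzf1 first, Ikzf5 next, then Ikzf2 and Ikzf3, with Ikzf4 last, except that Ikzf3 stood above Ikzf2 in Control replicate 2 (2.33 against 2.22 TPM). Ikzf1 had 98.2, 112 and 75.7 TPM in Brd9 KO libraries, against 63.0, 84.2 and 84.6 TPM in Control libraries. Ikzf5 had 12.6, 13.9 and 8.99 TPM in Brd9 KO, against 6.98, 10.3 and 9.93 TPM in Control. Ikzf2 had 6.79, 8.48 and 4.64 TPM in Brd9 KO, against 1.63, 2.22 and 2.50 TPM in Control. Ikzf3 had 3.97, 5.16 and 3.48 TPM in Brd9 KO, against 1.20, 2.33 and 1.85 TPM in Control. The neighbours Ikzf2 and Ikzf3 did not differ beyond their spread over Control libraries, where their ratio was 1.36, 0.953 and 1.35, against 1.71, 1.64 and 1.33 in Brd9 KO libraries (overlapping, exact two-sided permutation p = 0.3).

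The make-up of the family transcript pool differed between the groups. Ikzf1 made up 80.8%, 80.3% and 81.6% of the summed family TPM in Brd9 KO libraries, against 86.5%, 85.0% and 85.6% in Control libraries. The difference of -4.82 percentage points was larger than the range within either group, and the exact two-sided permutation test gave p = 0.1, its smallest value here. The share of Ikzf2 was 5.59%, 6.07% and 4.997% in Brd9 KO, against 2.24%, 2.24% and 2.53% in Control, and that of Ikzf3 was 3.27%, 3.70% and 3.75%, against 1.65%, 2.35% and 1.87%. The share of Ikzf5 overlapped, at 10.4%, 9.97% and 9.68% in Brd9 KO, against 9.59%, 10.4% and 10.04% in Control. For each Ikzf2 transcript there were 14.5, 13.2 and 16.3 Ikzf1 transcripts in Brd9 KO libraries, against 38.6, 37.9 and 33.9 in Control libraries. For each Ikzf3 transcript there were 24.7, 21.7 and 21.8 Ikzf1 transcripts in Brd9 KO, against 52.5, 36.2 and 45.8 in Control. These shares and ratios are by TPM, which is not corrected for the shift of fold changes with transcript length. With the length offset, the log2 fold changes were 1.09 for Ikzf2, 0.94 for Ikzf3 and -0.06 for Ikzf1, against 1.42, 1.03 and 0.10 without it. The part of transcript length in the shares was not tested. The summed family TPM itself overlapped, at 122, 140 and 92.8 in Brd9 KO, against 72.8, 99.1 and 98.9 in Control (exact two-sided permutation p = 0.3).

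**Figure D3:**
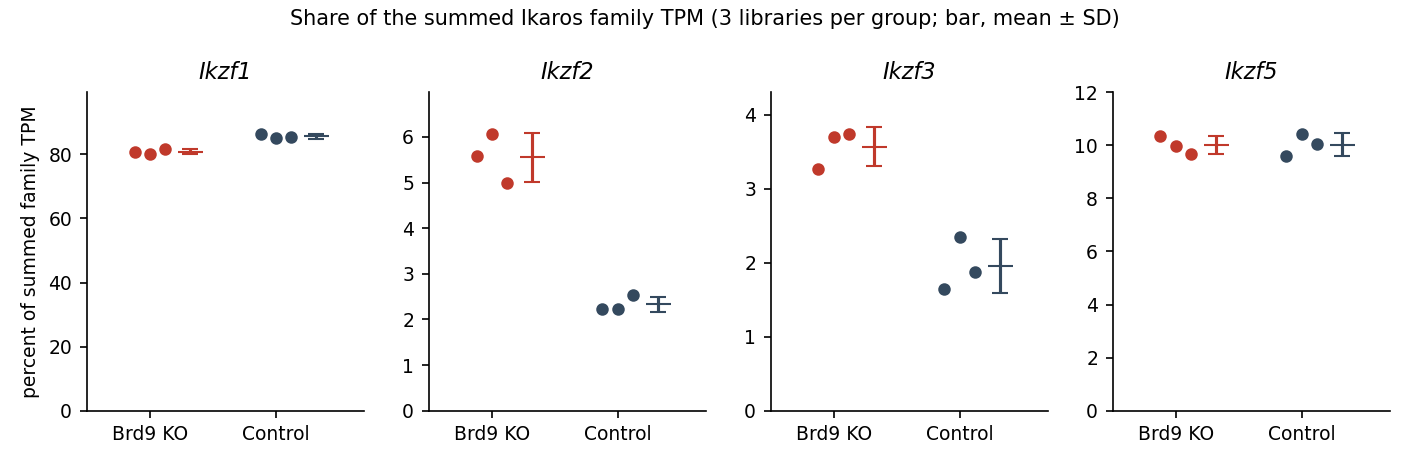
The vertical axis gives the percent of the summed TPM of the 5 members that each of 4 members takes, from 0 and on a separate scale for each, with 1 point a library and the mean ± SD of 3 libraries beside it. Ikzf1 is lower in every Brd9 KO library (80.3% to 81.6% against 85.0% to 86.5%), Ikzf2 and Ikzf3 are higher in every one, and Ikzf5 overlaps.

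Because Helios and Aiolos are known from lymphoid cells, and Helios also from stem cells, markers of those cells were set beside them. Of 13 tested T cell markers 1 was called, Cd4, higher in Brd9 KO, and the summed T cell list came to 31.8 to 38.6 TPM in Brd9 KO libraries, against 16.3 to 26.2 TPM in Control libraries. Lck, its most abundant marker, overlapped in CPM (9.98, 10.8 and 14.6 in Brd9 KO, against 7.46, 8.81 and 10.05 in Control). TPM carry no TMM factors, and the Ikzf1 mean in Brd9 KO was 1.23 times Control by TPM but 1.07 times by CPM. Groups that are apart in sums of TPM, here and below, can thus overlap in CPM. Cd3e, a chain of the T cell receptor complex, had 1.96, 1.42 and 2.41 CPM in Brd9 KO, against 1.32, 1.05 and 1.80 CPM in Control. Of 13 NK cell markers 6 were called higher, Gzma, Il2rb, Eomes, Ncr1, Prf1 and Tbx21, and 1 lower, Nkg7, with a list median log2 fold change of 0.84. The summed NK cell list ran the other way, at 382 to 406 TPM in Brd9 KO and 525 to 624 TPM in Control, because Nkg7 made up most of it (308 to 320 TPM in Brd9 KO and 477 to 587 TPM in Control). Without Nkg7 the other 12 markers summed to 71.0 to 89.1 TPM in Brd9 KO and 33.2 to 47.9 TPM in Control. Of 9 tested B and plasma cell markers 0 were called in either direction by edgeR, and 0 had an unadjusted p under 0.05. The summed list came to 2920, 2994 and 4825 TPM in Brd9 KO, against 1792, 2862 and 3180 TPM in Control, with Brd9 KO replicate 3 the highest. Of 10 stem cell markers Meis1, a homeobox factor, was called higher and Hoxb5 and Mllt3 lower. The summed stem cell list came to 96.9 to 120.8 TPM in Brd9 KO, against 68.4 to 85.2 TPM in Control. Its most abundant marker, Ly6a, was not called (log2 fold change 0.08, edgeR adjusted p = 0.83). Without Ly6a the sums overlapped, at 38.8 to 70.1 TPM in Brd9 KO and 34.0 to 39.35 TPM in Control. Of 7 progenitor markers Gata2 and Ptprc were called higher (log2 fold changes 1.27 and 0.47) and Mpo, the granule peroxidase of myeloid progenitors, lower (-0.98). The summed progenitor list came to 3587 to 4885 TPM in Brd9 KO, against 5644 to 6772 TPM in Control. Mpo made up most of that sum (2704 to 3687 TPM in Brd9 KO and 4960 to 6027 TPM in Control). Without Mpo the other progenitor markers ran the other way, at 883 to 1198 TPM in Brd9 KO and 685 to 774 TPM in Control. No listed marker of these lists was at 0 in all libraries. The part of lymphoid, stem or progenitor cell transcripts in the Ikzf2 and Ikzf3 values was not tested.

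The genes on either side of the called members on the chromosome were also examined. Next to Ikzf2, Erbb4 (423155 bases away) had 0 CPM in every library and Spag16 (139725 bases away) averaged 0 CPM in Brd9 KO and 0.04 CPM in Control. Next to Ikzf3, Grb7 (9529 bases away) averaged 0.20 CPM in Brd9 KO and 0.13 CPM in Control, and Zpbp2 (5066 bases away) did not pass the test (log2 fold change -0.15 ± 0.36 SE, edgeR adjusted p = 0.82). Only Zpbp2 among these 4 genes was high enough to be tested.

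The genes whose profile over the 6 libraries was most like that of a called member were found by the root mean square difference of log2(CPM + 1), centred on the Control mean, among 11991 genes. For Ikzf2 these were Dgkg (0.08), a diacylglycerol kinase, Col6a1 (0.08), a collagen chain, Tulp4 (0.09), Kitl (0.10), the ligand of Kit, and Fstl1 (0.10), a secreted glycoprotein. For Ikzf3 these were Ipcef1 (0.08), Nbeal2 (0.09), needed for platelet alpha granules, Csf2rb (0.09), the shared beta chain of the IL-3, IL-5 and GM-CSF receptors, Dmxl2 (0.10) and L1cam (0.10), an adhesion protein. The median gene differed from Ikzf2 by 0.99 and from Ikzf3 by 0.70 on this scale. The added 1 CPM damps genes of low level, so Col6a1 and Kitl, at means of 1.52 and 1.39 CPM, are alike on this scale although their log2 fold changes were 2.87 and 2.53. Mesenchymal stroma markers, of which Kitl is one, summed to 44.1 to 88.6 TPM in Brd9 KO libraries, against 11.5 to 18.8 TPM in Control libraries.

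Genes for partners and regulators of Ikaros proteins were counted against the 15.4% of all tested genes that were called. Of 14 NuRD subunits 1 was called, Chd3, a remodelling ATPase, which had 95.5, 109 and 71.8 CPM in Brd9 KO libraries, against 44.4, 52.8 and 55.8 CPM in Control libraries (log2 fold change 0.85 ± 0.17 SE, edgeR adjusted p = 0.025). The groups did not overlap for Chd3, whose transcript of 7281 bases is also among the long ones, and with the length offset its log2 fold change was 0.59 (edgeR adjusted p = 0.0045). They did not overlap for Hdac1, Hdac2, Mta1, Mbd3 and Rbbp7 either, each lower in Brd9 KO and not called, beside 33.5% of all tested genes. Chd4, the ATPase most often found with Ikaros, had 463, 503 and 394 CPM in Brd9 KO, against 337, 465 and 408 CPM in Control, and was not called (log2 fold change 0.17, edgeR adjusted p = 0.49). The NuRD list had a median log2 fold change of -0.08, against 0.02 over all tested genes, and 3 subunits had an unadjusted p under 0.05, only 1 of them higher in Brd9 KO. By DESeq2, 1 NuRD subunit was called higher and 1 lower. With the length offset and replicate block, 1 was called higher and 2 lower by edgeR. Of 5 other corepressor partners 0 were called by edgeR or DESeq2, and 1 had an unadjusted p under 0.05. The highest mean CPM over all 6 libraries were those of the C-terminal binding protein gene Ctbp1, with means of 320 and 357 CPM in Brd9 KO and Control, and Sin3b, a scaffold of histone deacetylase complexes, with 100.16 and 100.03 CPM. Of 11 genes for enzymes that act on Ikaros proteins 0 were called by edgeR or DESeq2, and 0 had an unadjusted p under 0.05. With the length offset, however, 4 of the 11 were called lower by edgeR, Ddb1 (log2 fold change -0.36, adjusted p = 0.048), Cul4b (-0.36, 0.038), Cul4a (-0.27, 0.096) and Csnk2a2 (-0.29, 0.0998), the first 3 of which encode parts of the ubiquitin ligase that holds cereblon. The list also holds Crbn, the cereblon receptor through which thalidomide analogues degrade human Ikaros and Aiolos, at means of 36.9 CPM in Brd9 KO and 31.2 CPM in Control (log2 fold change 0.24, edgeR adjusted p = 0.25), the casein kinase 2 subunits, and the phosphatase gene Ppp1ca, with means of 557 and 571 CPM.

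Genes known to depend on Ikaros in early lymphoid cells moved in both directions. Of 9 lymphoid priming targets 2 were called higher and 2 lower, with a median log2 fold change of -0.17. Dntt, the terminal transferase of lymphoid progenitors, had 5.36, 4.22 and 2.99 CPM in Brd9 KO libraries, against 42.8, 42.5 and 54.1 CPM in Control libraries (log2 fold change -3.46 ± 0.22 SE, edgeR adjusted p = 9.2e-04). Rag2, of the V(D)J recombinase, had 0.33, 0.40 and 0.34 CPM in Brd9 KO, against 2.01, 1.01 and 1.55 CPM in Control (log2 fold change -2.08 ± 0.36 SE, edgeR adjusted p = 0.016). For both genes every Brd9 KO library lay below every Control library. Satb1, a chromatin organiser, was called higher (log2 fold change 0.40 ± 0.11 SE, edgeR adjusted p = 0.068) but not with the length offset (0.19, adjusted p = 0.34). Flt3, the cytokine receptor of multipotent progenitors, had 77.4, 72.1 and 75.2 CPM in Brd9 KO, against 90.1, 74.1 and 89.3 CPM in Control, and Il7r had 6.14, 4.88 and 5.98 CPM, against 4.01, 5.44 and 6.51 CPM, and neither was called.

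Of 11 tested genes of the pre-B receptor and of the pre-B transition, 3 were called lower and 1 higher. Igll1 and Vpreb1, which encode the surrogate light chain, were near the detection limit in Brd9 KO, with 0.29, 0.18 and 0.14 CPM and 0.41, 0.29 and 0.48 CPM, against 1.59, 0.55 and 1.21 CPM and 1.93, 0.84 and 1.21 CPM in Control (log2 fold changes -2.42 ± 0.51 and -1.76 ± 0.41 SE, edgeR adjusted p = 0.031 and 0.041). Both genes were thus lower in every Brd9 KO library, and low in Control as well. Myc, a growth regulator that Ikaros represses in pre-B cells, had 207, 220 and 186 CPM in Brd9 KO, against 305, 301 and 276 CPM in Control (log2 fold change -0.52 ± 0.11 SE, edgeR adjusted p = 0.028). Syk, the kinase downstream of the pre-B receptor that is also used in myeloid cells, had 306, 298 and 259 CPM in Brd9 KO, against 162, 178 and 171 CPM in Control (log2 fold change 0.75 ± 0.11 SE, edgeR adjusted p = 0.0079). Of 3 tested Notch target genes Notch3, a Notch receptor that is itself a Notch target, was called higher, with 0.94, 0.91 and 0.77 CPM in Brd9 KO, against 0.26, 0.17 and 0.18 CPM in Control (log2 fold change 2.06 ± 0.35 SE, edgeR adjusted p = 0.015). Hes1 and Nrarp were not called.

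Among 20 tested genes for other lymphoid transcription factors, 5 were called higher and 2 lower, and their median log2 fold change was 0.41, against 0.02 over all tested genes. Ets1, used across T, B and NK cells, had 102, 109 and 112 CPM in Brd9 KO libraries, against 40.5, 52.5 and 57.4 CPM in Control libraries, a difference about as large as that of Ikzf3 (log2 fold change 1.10 ± 0.14 SE, edgeR adjusted p = 0.0057). Eomes, a T-box factor of NK and memory T cells, had 3.11, 3.60 and 4.77 CPM in Brd9 KO, against 0.64, 1.14 and 1.32 CPM in Control (log2 fold change 1.88 ± 0.32 SE, edgeR adjusted p = 0.016). Bcl11a, needed for B cell development, had 71.2, 72.5 and 67.8 CPM in Brd9 KO, against 89.9, 89.6 and 90.7 CPM in Control (log2 fold change -0.35 ± 0.09 SE, edgeR adjusted p = 0.051). All 3 were free of overlap between the groups, as were 33.5% of all tested genes. So were Tcf3, Foxo1, Spib, Mef2c, Tcf7, Id3 and Tbx21 of the same list. Mef2c was called higher (log2 fold change 0.50 ± 0.13 SE, edgeR adjusted p = 0.057) but not with the length offset (0.26, adjusted p = 0.13). Tbx21 and Id3 were also called higher and Spib lower, each at an adjusted p above 0.05. Of the early B cell factors, Ebf1 had 1.02, 1.27 and 0.87 CPM in Brd9 KO, against 0.57, 1.05 and 1.29 CPM in Control, and was not called, and Pax5 was too low to test.

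**Figure D4:**
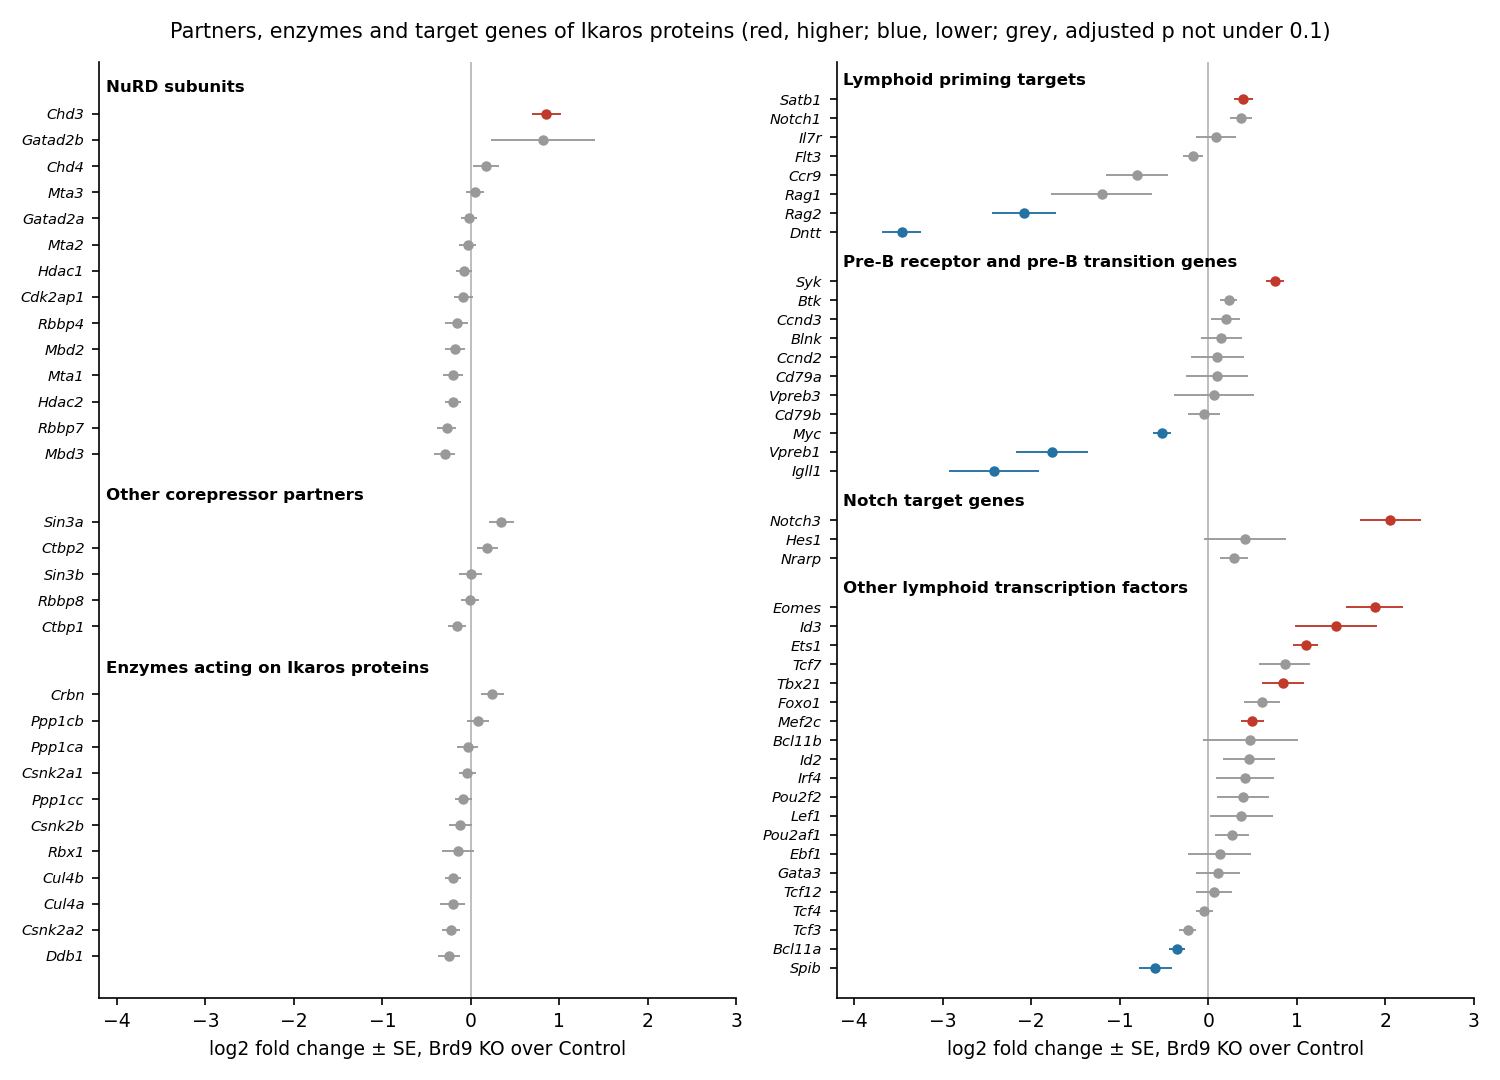
Each point is the log2 fold change of 1 tested gene of the 7 lists (1 gene left out), Brd9 KO over Control on the horizontal axis, with its SE as a bar and genes ordered by value within a list. The 14 NuRD subunits, 5 other corepressor partners and 11 enzymes hold 1 gene called by edgeR in all 6 libraries without the length offset, Chd3. Dntt, Rag2, Igll1 and Vpreb1 are the called genes farthest to the left among the target lists.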

How the data were processed

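RNA-seq of 6 libraries was analysed. Per the methods of the study, the authors ran nf-core/rnaseq 3.0 (STAR and RSEM) on mm10. The deposited expected counts are RSEM estimates that divide shared reads (3.87% to 4.33% of expressed genes were not whole), and the authors' TPM values are scaled for length and library by RSEM. The deposited transcript length and effective length were used as well, and FPKM were not used. Expected counts were rounded to whole numbers, filtered with filterByExpr, scaled by TMM (factors 0.927 to 1.08) and tested in edgeR 4.0.16 by quasi-likelihood without covariates (Benjamini-Hochberg over 12953 genes, threshold 0.1 as in the study, which used DESeq2). The SE is that of the log2 fold change, and SDs are over 3 libraries. Levels of single values were compared by exact permutation. Replicates differed by more than counting noise in every pair (chi-square over its degrees of freedom 10.6 to 80.2), so none was taken for a copy. The test was checked on simulated counts.

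Named genes are all 5 members, Brd9, up to 4 called genes with the smallest p in each list (or, with none, the 2 of highest mean CPM), the 5 genes most like each called member and its neighbours on the chromosome. Kit, Cd3e, Pstk, Chd4, Crbn, Flt3, Il7r, Ebf1, Pax5, Hes1, Nrarp, the named markers and the other called list genes were added after their values were seen, and 1 gene that the rule names is not reported here. The members and the lists were chosen with earlier results of these data known. Positions and sequences are from GENCODE M21. Alternatives were library totals, relative log expression scaling, 2 other filters, DESeq2 1.42.0, limma-voom and limma 3.58.1 on log2(TPM + 1) and log2(TPM + 0.1), a replicate block, a stricter threshold, leaving out each library, and, added after seeing the data, a transcript length offset with and without the block.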

Additional observations from a re-analysis of the deposited data

How the results depend on the processing

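The calls of Ikzf2, Ikzf3 and Brd9 held in all 18 alternatives, and Ikzf1 and Ikzf5 were called in none. The highest adjusted p was 0.024 for Ikzf2 (without Control replicate 2) and 0.086 for Ikzf3 (without Control replicate 3). Counts over all genes moved more. Genes called lower numbered 489 with library totals, 1260 with DESeq2, 224 on log2(TPM + 1), 215 on log2(TPM + 0.1) and 1300 with the length offset, against 809. At an adjusted p of 0.05, 672 were higher and 343 lower, and with the length offset and replicate block 1885 and 1739. Leaving out 1 library gave 462 (without Brd9 KO replicate 1) to 2141 (without Brd9 KO replicate 3) higher and 179 to 2009 lower for the same libraries, and the others gave 484 to 685 higher and 223 to 346 lower. Calls of Satb1, Mef2c and Bcl11a were each kept in 9 of 18 alternatives, of Spib in 7, Tbx21 in 12 and Myc in 14 of 18, and of Id3 in 10 and Vpreb1 in 13 of 17. With the replicate block alone, 1285 genes were higher and 792 lower. The replicate numbers do not pair the libraries: same-numbered deviations correlated at -0.0865, 0.441 and 0.0226, and not every library correlated best with its own number. The cause of the moved counts was not tested. Low counts limit Ikzf4, and 3 libraries a group limit every permutation p to 0.1 or more.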
